A study of Mus musculus with 8 samples.

Results

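Keratins are the intermediate filament proteins of epithelial cells, and 24 keratin genes with a total of 40 or more raw counts over 8 MC38 tumors were described, out of 52 symbols of the form Krt followed by a number among 24421 genes in the count table. The remaining 28 keratin symbols had totals below 40. MC38 cells are a line derived from a mouse colon adenocarcinoma. Tumors grew under the flank skin of 9-week-old female B6 Kaede mice, which carry Kaede, a fluorescent protein that violet light converts from green to red emission. On day 10, 4 tumors (photoconverted, P1 to P4 in the plots) received 405-nm light for 3 min through the skin, and 4 tumors (controls, C1 to C4) of mice of the same strain, age and sex were not exposed. All 8 tumors were collected 5 h after the light, RNA was sequenced in bulk from each whole tumor, and 1 library was made per tumor. Nothing in the sources used here says how much overlying skin was removed from the tumors before RNA was extracted.

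A keratin filament is built from pairs of 1 type I and 1 type II protein, and each kind of epithelium makes its own pairs. Simple epithelia such as gut use Krt8 with Krt18, basal keratinocytes of the epidermis use Krt5 with Krt14, suprabasal keratinocytes use Krt1 with Krt10, and injured or hyperproliferative epidermis adds Krt6a, Krt6b, Krt16 and Krt17. Hair follicles hold further sets, of which Krt25, Krt27 and Krt71 build the inner root sheath and Krt85 belongs to the hair shaft. Of the 24 genes, 12 lie on chromosome 11 and 11 on chromosome 15 of GRCm38 in the GENCODE vM21 annotation, and Krt85 was not placed. They comprised 4 simple epithelial, 7 epidermal, 4 wound-type, 4 inner root sheath and companion layer and 1 hair shaft keratin, and 4 others (Krt20, Krt23, Krt42 and Krt222). Just inside the minimum lay Krt18 with 43 counts and Krt23 with 44, and just outside lay Krt83 with 35 and Krt73 with 32.

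Total counts ranged from 12576615 to 35844417 per tumor, and all 24 keratins together held 9065 counts. Levels are given as CPM, the counts of a gene relative to the library total after TMM scaling. A count of 0 allowed a level of up to 0.0751 CPM in the deepest library and 0.321 CPM in the shallowest (3 counts, for counting error only). Rn45s, the precursor of ribosomal RNA, took 2.7% to 9.65% of counts in photoconverted tumors 1 to 3 and control tumors 1 and 3, but 21.85%, 35.74% and 23.24% in photoconverted tumor 4 and control tumors 2 and 4. These 3 libraries also had the lowest total counts.

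Among the wound-type keratins, Krt17 was higher in every photoconverted than in every control tumor, whereas Krt1, Krt5, Krt10, Krt14, Krt15 and Krt77 were concentrated in photoconverted tumors 2 and 3, and Krt25, Krt27 and Krt71 in photoconverted tumor 2 and control tumor 2. Simple epithelial keratins were low in all 8 tumors. Of the 24 genes, 17 had a higher and 7 a lower mean CPM in photoconverted tumors, where 47.7% of the 15567 genes with at least 40 counts had a higher one, and 14 had their highest level in photoconverted tumor 2 or 3, as did 17.7% of those genes. Photoconverted tumor 4 had the lowest level of its group, ties not counted, in 16 of the 24 keratins and in 41.2% of those genes. Krt1, Krt15 and Krt77 reached 40 counts only through photoconverted tumors 2 and 3. The minimum itself thus favors such orders among genes with few counts. In bulk tissue, more cells of a type and more RNA per cell cannot be told apart.

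**Figure D1:**
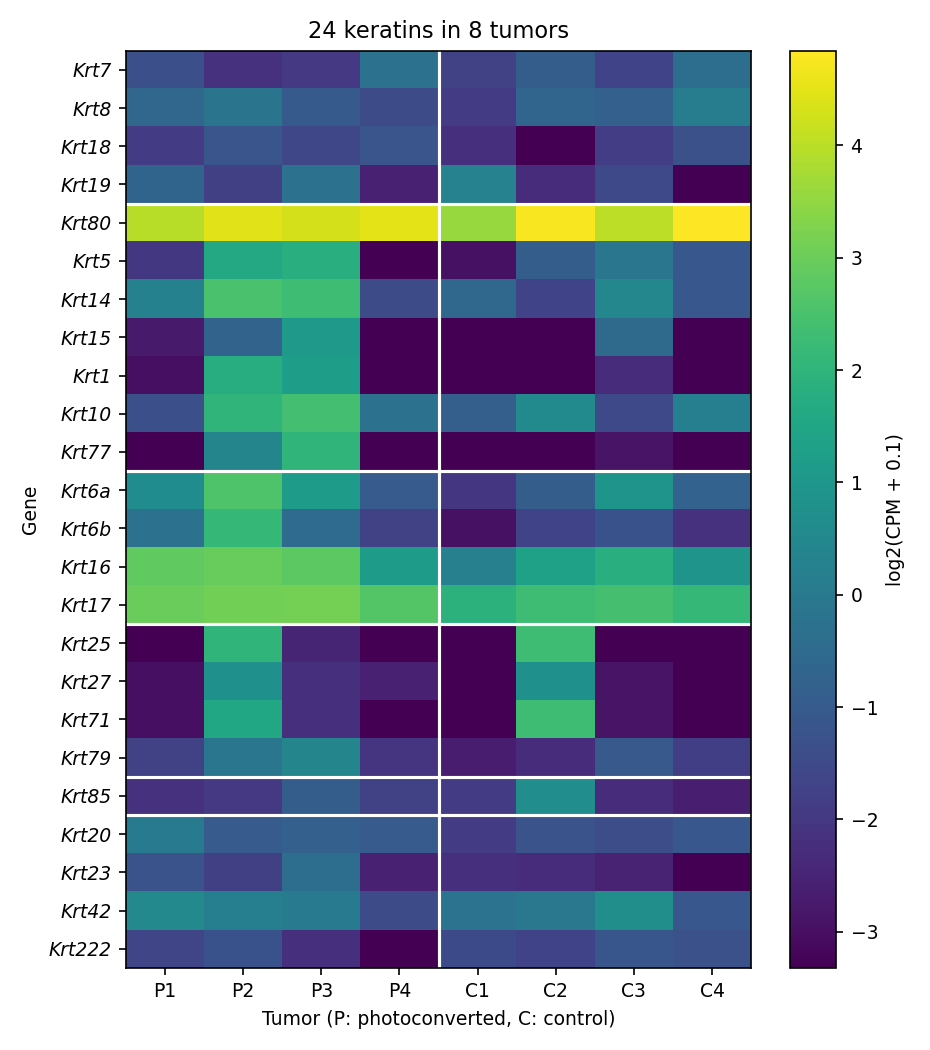
Levels of the 24 keratins (rows, grouped from the top as simple epithelial, epidermal, wound-type, inner root sheath, hair shaft and others) in 4 photoconverted (P1 to P4) and 4 control tumors (C1 to C4), colored by log2(CPM + 0.1). Krt80 is high in all 8 columns, most other epidermal rows are brightest in P2 and P3, and Krt25, Krt27 and Krt71 are bright in P2 and C2.

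The groups were compared with edgeR's quasi-likelihood test, adjusted by the Benjamini-Hochberg method over the 14468 genes that passed its filter on low counts. At an adjusted p under 0.05 the test called 0 genes (0%), and 322 genes were under 0.05 before adjustment. Only 8 of the 24 keratins passed the filter (Krt6a, Krt8, Krt10, Krt14, Krt16, Krt17, Krt42 and Krt80), which favors genes high in at least 1 group. None of the 8 had an adjusted p under 0.05, and Krt14, Krt16 and Krt17 had an unadjusted p under 0.05, all higher in photoconverted tumors. Over all genes tested, 1.65% were higher and 0.574% were lower at this unadjusted p. All 24 keratins were also fitted without the filter. Of these, 8 had an unadjusted p under 0.05, all higher (Krt1, Krt14, Krt16, Krt17, Krt20, Krt23, Krt6b and Krt77). After adjustment 0 passed. Over the 20565 genes in that fit, 2.45% were higher at this unadjusted p. The keratins were chosen by a minimum total count, which only 15567 genes reached, so this share is not a like baseline. Krt1 and Krt77 reached that minimum only through photoconverted tumors 2 and 3, so the choice itself favors higher values. The 8 of 24 can therefore not be weighed against the 2.45%. DESeq2's Wald test called 24 of 16610 genes (0.144%), among them Krt17 and no other keratin (adjusted p = 0.0487).

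**Figure D2:**
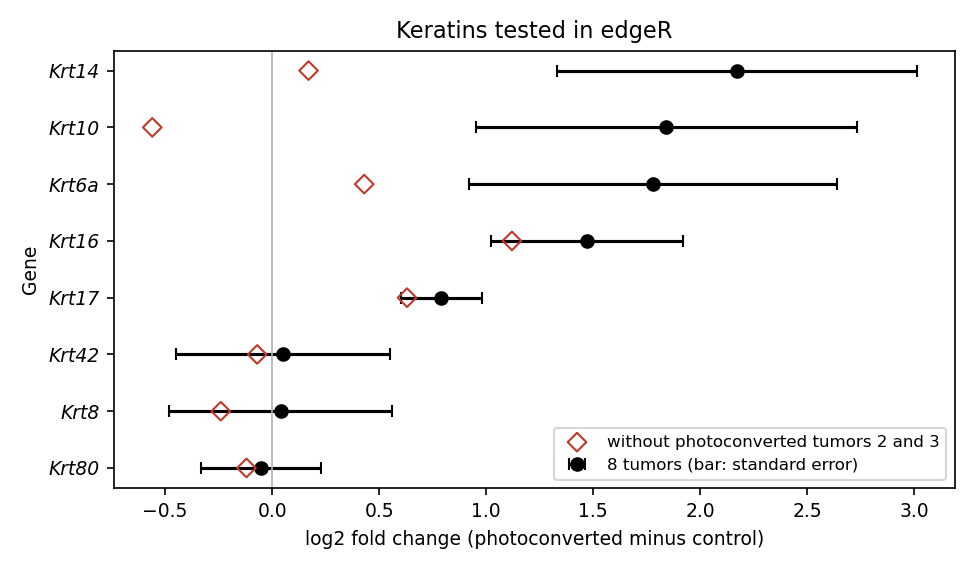
The log2 fold change, photoconverted minus control, of the 8 keratins that passed edgeR's filter (black points, bars are the standard error, 8 tumors) and the same without photoconverted tumors 2 and 3 (red diamonds). Krt17 is at 0.79 with all tumors and at 0.63 without these, and Krt14 is at 2.17 and 0.17.

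Krt17 is a type I keratin of hair follicles that keratinocytes switch on after injury. It had 7.81, 8.46, 8.71 and 6.15 CPM in photoconverted tumors 1 to 4 and 3.68, 4.82, 5.33 and 4.27 CPM in control tumors 1 to 4. The groups did not overlap, and even photoconverted tumor 4 was above the highest control tumor. Among all genes tested, 0.684% had every photoconverted above every control tumor and 0.643% had the opposite order, and Krt17 was the single keratin of the 8 tested with either. The photoconverted tumors averaged 7.78 ± 1.15 CPM and the controls 4.53 ± 0.709 CPM (SD, n = 4 each), a log2 fold change of 0.79 (standard error 0.19, adjusted p = 0.999 in edgeR). Of 8 two-sided exact permutation tests of log2 CPM, 1 for each keratin tested, that of Krt17 alone reached p = 0.0286, the smallest p that 4 tumors against 4 allow. All 4 pairs of same-numbered tumors deviated together across genes, as did some pairs with different numbers, and when tumors were exchanged only within these 4 pairs Krt17 was higher in 4 of 4 pairs with an exact permutation p of 0.125, the smallest that 4 pairs allow. Across 18 settings the log2 fold change of Krt17 stayed between 0.60 and 0.89, and its adjusted p in edgeR or DESeq2 lay between 0.0487 and 1. When only the 5 libraries with under 10% of counts on Rn45s were fitted, 3 photoconverted and 2 controls, it was 0.89 (edgeR adjusted p = 0.194), and the other 3 tumors held a single photoconverted one, too few for a test.

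Krt16, the injury-induced type I partner of the Krt6 proteins, had 7.18, 7.58, 6.82 and 2.12 CPM in photoconverted tumors 1 to 4 and 1.08, 2.46, 3.34 and 1.77 CPM in control tumors 1 to 4. Photoconverted tumors 1 to 3 lay above all controls, while photoconverted tumor 4 lay among them. The photoconverted tumors averaged 5.92 ± 2.56 CPM and the controls 2.16 ± 0.965 CPM (SD, n = 4 each), with a log2 fold change of 1.47 (standard error 0.45, adjusted p = 0.999 in edgeR, and p = 0.0857 in the exact permutation test). Krt6a, an injury-induced type II keratin, had 1.48, 5.97, 2.13 and 0.41 CPM in photoconverted tumors and 0.143, 0.428, 1.78 and 0.488 CPM in controls, numbered 1 to 4 in each group. Control tumor 3 was above photoconverted tumor 1, and photoconverted tumor 4 was below 3 of the 4 controls. The log2 fold change of Krt6a was 1.78 (standard error 0.86, adjusted p = 0.999 in edgeR, exact permutation p = 0.2). It was 0.89 without photoconverted tumor 2 and 2.97 without control tumor 3. Krt6b, its close copy, did not pass the filter and had 0.751, 4.2, 0.63 and 0.205 CPM in photoconverted tumors and 0.0286, 0.214, 0.32 and 0.122 CPM in controls. Of its 196 counts, 133 came from photoconverted tumor 2.

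**Figure D3:**
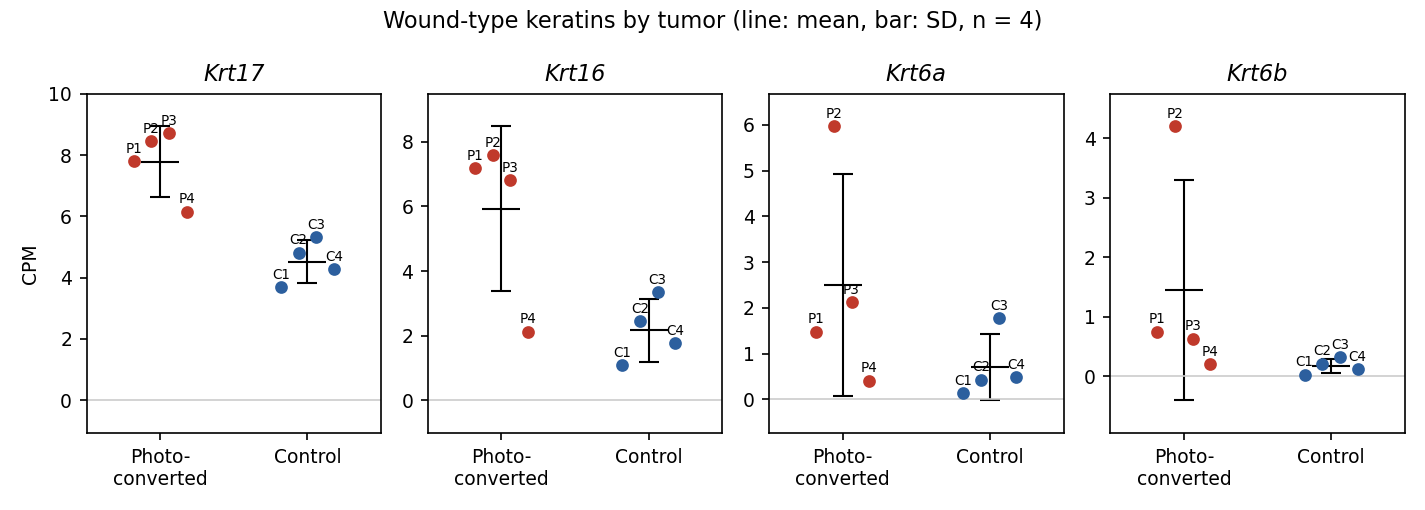
CPM of the 4 wound-type keratins in each of 4 photoconverted (red, P1 to P4) and 4 control tumors (blue, C1 to C4), where the line is the mean and the bar the SD (n = 4). The groups are apart for Krt17, and for Krt16 photoconverted tumor 4 lies among the controls at 2.12 CPM.

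Summed over Krt6a, Krt6b, Krt16 and Krt17, wound-type keratins had 17.2, 26.2, 18.3 and 8.88 CPM in photoconverted tumors 1 to 4 and 4.94, 7.92, 10.8 and 6.65 CPM in control tumors 1 to 4. Photoconverted tumors 1 to 3 were above every control, and photoconverted tumor 4 was below control tumor 3. The group means were 17.6 ± 7.09 and 7.57 ± 2.46 CPM (SD, n = 4 each), and the mean log2 sum was 1.18 higher in photoconverted tumors with a pooled SD of 0.57 (0.77 higher without photoconverted tumors 2 and 3). Krt6a and Krt16, which pair in filaments, varied together across the 8 tumors (Pearson's r = 0.91, exact permutation p = 0.00327, adjusted p = 0.0136 over 8 pairs of genes, and Spearman's rho = 0.86, exact permutation p = 0.0107, adjusted p = 0.0857). Without the tumors farthest from the median of Krt6a, photoconverted tumor 2 and control tumor 1, r was 0.85 in 6 tumors (exact permutation p = 0.0653). The call was also lost without photoconverted tumor 4 alone (adjusted p = 0.0516, exact permutation test) or control tumor 1 alone (adjusted p = 0.0725, exact permutation test). The r over 8 tumors pools both groups, whose mean levels of both genes differed. No r was computed within either group or among the 5 tumors whose Rn45s share was below 10%, since correlations were limited to 6 or more tumors.

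Reads of these genes can be hard to assign, so the stretches of coding sequence that they share are shown, from GENCODE vM21 transcripts, with the shared bases in capitals and up to 8 flanking coding bases in lower case. Krt6a and Krt6b share an unbroken run of 280 bases (coding bases 34 to 313 of both), printed from Krt6a. Krt16 shares at most 134 bases with Krt14, and Krt17 shares at most 55 with Krt16.
Krt6a: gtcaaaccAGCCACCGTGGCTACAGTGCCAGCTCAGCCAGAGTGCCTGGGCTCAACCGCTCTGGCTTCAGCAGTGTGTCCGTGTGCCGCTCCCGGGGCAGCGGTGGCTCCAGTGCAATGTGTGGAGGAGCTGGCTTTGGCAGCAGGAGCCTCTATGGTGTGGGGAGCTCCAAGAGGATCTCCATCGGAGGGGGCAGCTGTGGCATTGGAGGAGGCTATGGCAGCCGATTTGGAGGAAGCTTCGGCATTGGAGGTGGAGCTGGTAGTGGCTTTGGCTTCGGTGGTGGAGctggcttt
Krt16 beside Krt14: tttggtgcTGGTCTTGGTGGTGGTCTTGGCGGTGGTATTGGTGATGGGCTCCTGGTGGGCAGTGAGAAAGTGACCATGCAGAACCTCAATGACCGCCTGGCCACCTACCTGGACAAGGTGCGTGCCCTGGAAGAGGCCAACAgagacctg
Krt14 beside Krt16: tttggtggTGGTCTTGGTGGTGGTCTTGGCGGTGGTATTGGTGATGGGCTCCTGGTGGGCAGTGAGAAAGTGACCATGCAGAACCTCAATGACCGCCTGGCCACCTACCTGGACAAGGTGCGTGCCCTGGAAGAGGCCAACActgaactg
Krt16 beside Krt17: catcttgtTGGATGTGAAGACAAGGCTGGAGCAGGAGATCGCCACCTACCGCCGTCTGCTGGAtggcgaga
Krt17 beside Krt16: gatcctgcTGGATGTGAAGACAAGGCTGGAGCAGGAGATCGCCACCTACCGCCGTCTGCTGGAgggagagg
In words of 75 bases, 42.29% of the Krt6a transcript and 39.61% of Krt6b recurred in other genes, mostly in each other, so the split of counts between these genes is uncertain. The same share was 28.91% for Krt16, of which most was in Gm11597, and 5.91% for Krt14, all in Krt16. Krt17 had 0%, so its values do not depend on how reads were split between copies at this word length.

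Of the 7 epidermal keratins, Krt1, Krt5, Krt10, Krt14 and Krt77 were higher in photoconverted tumors 2 and 3 than in each of the other 6 tumors, while Krt15 and Krt80 were not. Krt14, the type I keratin of basal keratinocytes, had 1.1, 5.56, 4.85 and 0.273 CPM in photoconverted tumors 1 to 4 and 0.571, 0.214, 1.28 and 0.366 CPM in control tumors 1 to 4. Krt5, its type II partner, had 0.15, 2.94 and 3.39 CPM in photoconverted tumors 1 to 3, no count in photoconverted tumor 4, and 0.0286, 0.428, 0.818 and 0.366 CPM in controls. Both were highest in photoconverted tumors 2 and 3, with control tumor 3 next. Photoconverted tumors 1 and 4 did not exceed the highest control for either gene. The log2 fold change of Krt14 was 2.17 (standard error 0.84, adjusted p = 0.999 in edgeR, exact permutation p = 0.2), and it was 0.17 without photoconverted tumors 2 and 3, its highest. Krt5 did not pass the filter, and without the filter its log2 fold change was 2.01 (adjusted p = 0.998 in edgeR). Krt15, a type I keratin of basal cells and of the hair follicle bulge, had 0.05, 0.505, 1.97 and 0 CPM in photoconverted tumors and was counted in 1 control, tumor 3, at 0.604 CPM.

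Krt10, the type I keratin of suprabasal keratinocytes, had 0.3, 3.92, 5.2 and 0.752 CPM in photoconverted tumors 1 to 4 and 0.457, 1.39, 0.249 and 1.04 CPM in control tumors 1 to 4. Its log2 fold change of 1.84 (standard error 0.89, adjusted p = 0.999 in edgeR, exact permutation p = 0.343) turned to -0.56 without photoconverted tumors 2 and 3. These were its 2 highest tumors, so leaving them out lowers the value by construction. Krt1, its type II partner, had 0.025, 3.32, 2.25 and 0 CPM in photoconverted tumors and was counted in 1 control, tumor 3, with 3 counts (0.107 CPM). Krt77, a further type II epidermal keratin, had 1.2 and 3.98 CPM in photoconverted tumors 2 and 3, no count in photoconverted tumors 1 and 4, and 1 count in all controls together. Of all counts, photoconverted tumors 2 and 3 held 97.6% for Krt1, 99.3% for Krt77, 81.7% for Krt5, 77.6% for Krt15, 77.1% for Krt10 and 72.7% for Krt14. Among the wound-type keratins this share was 38.1% for Krt17 and 45.1% for Krt16, but 64.8% for Krt6a and 76.0% for Krt6b. It was 32.3% for Krt80.

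Krt80, a type II keratin of many epithelia, behaved differently from the rest of its list. It had 15.4, 22.3, 19.8 and 22.9 CPM in photoconverted tumors 1 to 4 and 11.8, 27.1, 16.1 and 28.6 CPM in control tumors 1 to 4. The control values enclosed all photoconverted ones, and the lowest and highest tumors differed 2.43-fold. The difference for Krt80 on the log2 scale was -0.05 (standard error 0.28, adjusted p = 0.999 in edgeR, exact permutation p = 0.943) and took either sign across settings. Krt80 held 41.3% of the counts on all 24 keratins. Per kilobase of exon, where genes of different length can be compared, mean levels over the 8 tumors were 3.97 CPM for Krt17, 3.2 for Krt80, 2.58 for Krt16 and 1.01 for Krt14, and below 1 for the other keratins with a known length. The order differed between the groups. In photoconverted tumors Krt17 (5.02) and Krt16 (3.78) were above Krt80 (3.14), while in controls Krt80 (3.26) was above Krt17 (2.92) and Krt16 (1.38). These values rest on the 6393 bases of all Krt80 exons. With the longest transcript of each gene (3919 bases for Krt80), Krt80 was at 5.23 CPM per kilobase (5.13 in photoconverted tumors and 5.33 in controls) and above Krt17 in both groups, whose values did not change. The order of these genes was not tested.

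Without Krt80, the summed level of the other 6 epidermal keratins was 1.63, 17.4, 21.6 and 1.03 CPM in photoconverted tumors 1 to 4 and 1.06, 2.03, 3.09 and 1.77 CPM in control tumors 1 to 4. Photoconverted tumors 2 and 3 were above all others, and photoconverted tumors 1 and 4 lay within the range of the controls or below it. The mean log2 sum was 1.43 higher in photoconverted tumors, with a pooled SD of 1.67 that exceeded the difference. With Krt80 the same difference was 0.41 with a pooled SD of 0.60. Photoconverted tumor 1 thus had wound-type keratins at 17.2 CPM beside other epidermal keratins at 1.63 CPM, whereas photoconverted tumor 3 had 18.3 and 21.6 CPM. For each count of Krt14, photoconverted tumors 1 to 4 held 6.52, 1.36, 1.41 and 7.75 counts of Krt16, and control tumors 1 to 4 held 1.9, 11.5, 2.61 and 4.83. The ratio in photoconverted tumor 4 rests on 4 counts of Krt14 and that in control tumor 2 on 2.

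**Figure D4:**
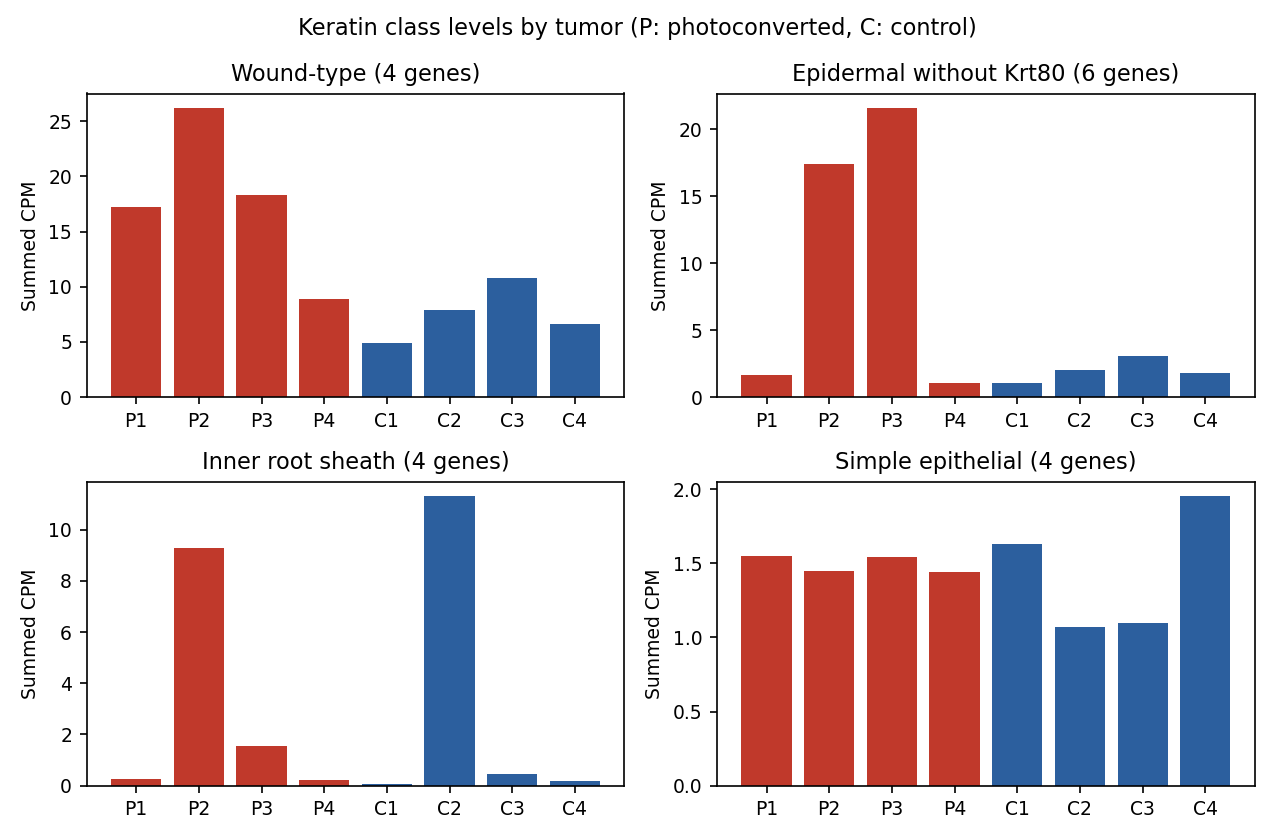
Summed CPM of 4 keratin classes in each tumor (red, photoconverted P1 to P4, and blue, control C1 to C4), with a separate linear axis from 0 for each class. The wound-type class is high in P1, P2 and P3, the epidermal class without Krt80 in P2 and P3, the inner root sheath class in P2 and C2, and the simple epithelial class stays between 1.07 and 1.95 CPM.

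Tumors fell into separate clusters in 6 of the 8 gene pairs examined, where the largest gap between neighboring tumors covered over 40% of the log2 range of a gene with at least 2 tumors on each side, so no r over all 8 tumors is given for them. Among the 6 tumors other than photoconverted tumors 2 and 3, r was 0.28 for Krt5 with Krt14 (exact permutation p = 0.549) and -0.01 for Krt14 with Krt8 (exact permutation p = 0.983). In the same 6 tumors it was 0.68 for Krt14 with the muscle actin gene Acta1 (exact permutation p = 0.165). None of these 3 pairs had an exact permutation p under 0.05. Lor, which encodes loricrin of the cornified envelope, had no count in these 6 tumors, Krt1 was counted in 2 of them and Krt25 in 1, so no r is given for their pairs. Krt8 and Krt18 did not vary together over 8 tumors (r = 0.19, exact permutation p = 0.651, adjusted p = 0.723, rho = 0.29, exact permutation p = 0.501, adjusted p = 0.668), and r was -0.16 without control tumors 1 and 4.

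Keratins of the inner root sheath, the layer that molds the growing hair, were found almost exclusively in 1 tumor of each group. Krt25 had 3.98 CPM in photoconverted tumor 2 and 4.82 CPM in control tumor 2, 0.0788 CPM (2 counts) in photoconverted tumor 3, and no count in the other 5 tumors. Krt27 had 1.61 CPM in both photoconverted tumor 2 and control tumor 2 and at most 3 counts elsewhere. Krt71 had 2.87 and 4.82 CPM in these tumors and at most 3 counts elsewhere. The 3 genes thus shared 1 pattern, and photoconverted tumor 2 and control tumor 2 together held 98.8% of the counts of Krt25, 91.7% of Krt27 and 96.5% of Krt71. Krt79, a keratin of the follicle opening and sebaceous duct, differed from them, with 0.2, 0.821, 1.22 and 0.137 CPM in photoconverted tumors and 0.0571, 0.107, 0.391 and 0.183 CPM in controls. It was highest in photoconverted tumors 2 and 3, as the epidermal keratins were.

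Because Krt25, Krt27 and Krt71 appeared in the same tumors, the 250 bases before their RefSeq start sites (GRCm38.p6, minus strand) are printed, 5′ to 3′ along the gene. Capitals mark TATAAA, the TATA box.
Krt25 promoter, chr11:99322952-99323201: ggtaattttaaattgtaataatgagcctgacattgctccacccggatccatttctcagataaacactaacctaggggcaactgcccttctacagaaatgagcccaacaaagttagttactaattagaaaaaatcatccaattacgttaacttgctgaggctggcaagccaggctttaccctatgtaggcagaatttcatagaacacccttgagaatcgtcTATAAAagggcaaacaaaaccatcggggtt
Krt27 promoter, chr11:99351119-99351368: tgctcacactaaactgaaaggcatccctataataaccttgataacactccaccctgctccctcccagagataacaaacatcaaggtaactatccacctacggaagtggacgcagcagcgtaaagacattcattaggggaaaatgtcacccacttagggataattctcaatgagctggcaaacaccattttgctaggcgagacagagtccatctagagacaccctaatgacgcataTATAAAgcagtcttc
Krt71 promoter, chr15:101743098-101743347: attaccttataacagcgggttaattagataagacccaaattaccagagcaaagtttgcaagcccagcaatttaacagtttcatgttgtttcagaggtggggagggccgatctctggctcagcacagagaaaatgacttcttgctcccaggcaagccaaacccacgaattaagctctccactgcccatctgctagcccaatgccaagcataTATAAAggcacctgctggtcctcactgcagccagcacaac
The TATA box began 30, 15 and 40 bases before the RefSeq start in Krt25, Krt27 and Krt71. GENCODE vM21 places the starts of Krt27 (base 99351104) and Krt71 (base 101743109) elsewhere, so these distances depend on the annotation. RefSeq promoters were found for 14 of the 24 keratins, and 5 of the 14 held TATAAA on either strand (these 3, Krt10 and Krt20), against 12.4% of 32851 promoters of the same length. None was found for the wound-type keratins Krt6a, Krt6b, Krt16 and Krt17, or for Krt1, Krt15, Krt19, Krt80, Krt85 and Krt222. Motifs of these genes were therefore not examined. The AP-1 motif TGANTCA was in 0 of the 14 and in 6.75% of all promoters, and CCAAT was in 4 of the 14 and in 33.8% of all. The printed TATA boxes overlap neither of these motifs.

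Sums of other hair genes differed between photoconverted tumor 2 and control tumor 2. Krt85, a hair shaft keratin, had 1.5 CPM (14 counts) in control tumor 2 and between 0.061 and 0.433 CPM in the other 7. Over the 15 hair shaft symbols in the table, most of them below the minimum, control tumor 2 had 80 counts (8.56 CPM), photoconverted tumor 2 had 48 (1.52 CPM) and no other tumor exceeded 1.06 CPM. The 53 genes of keratin-associated proteins, which cross-link hair keratins, summed to 67 counts (7.17 CPM) in control tumor 2, 14 counts (0.442 CPM) in photoconverted tumor 2 and at most 3 counts in any other. Both sums were highest in control tumor 2, but not every hair shaft gene was. Krt36 had 9 counts in photoconverted tumor 3 and 10 in control tumor 1 against 1 in control tumor 2, and it was chosen after its values were seen. Tchh, which encodes trichohyalin of the inner root sheath, had 5.08 CPM in photoconverted tumor 2, 11.2 CPM in control tumor 2 and at most 0.394 CPM elsewhere. Tchh was chosen after its values were seen. Summed over Krt25, Krt27, Krt71 and Krt79, photoconverted tumors averaged 2.82 ± 4.35 CPM and controls 3.01 ± 5.56 CPM (SD, n = 4 each), so the spread within each group exceeded the difference. The mean log2 sum was instead 0.93 higher in photoconverted tumors, with a pooled SD of 2.95, so the direction turned with the scale. Krt79 held most counts of this sum, such as 11 of 13 in control tumor 3, in every tumor but 1 of each group. These were photoconverted tumor 2 (26 of 294) and control tumor 2 (1 of 106).

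Simple epithelial keratins, the usual keratins of intestinal epithelium and of many carcinomas, were low in these colon tumors, at 1.14 CPM or less for each gene in each tumor. Krt8 had 0.55, 0.79, 0.394 and 0.273 CPM in photoconverted tumors 1 to 4 and 0.171, 0.535, 0.462 and 0.977 CPM in control tumors 1 to 4. Krt18, its type I partner, had 0.175, 0.347, 0.236 and 0.342 CPM in photoconverted tumors and 0.114, 0, 0.178 and 0.305 CPM in controls. No tumor had more than 25 counts of Krt8 or 11 of Krt18. Of the words of 75 bases in the Krt8 transcript, 21.97% recurred in the pseudogene Krt8-ps, so its counts can depend on how such reads were treated. Krt19, a type I keratin of simple and ductal epithelia, had 0.525, 0.189, 0.749 and 0.0683 CPM in photoconverted tumors and 1.14, 0.107, 0.249 and 0 CPM in controls. Krt7, a type II keratin of ducts, had 0.3, 0.126, 0.158 and 0.752 CPM in photoconverted tumors and 0.2, 0.428, 0.213 and 0.671 CPM in controls. For all 4 genes the 2 groups overlapped. The log2 fold change of Krt8, the only gene of the class tested, was 0.04 (standard error 0.52, adjusted p = 0.999 in edgeR, exact permutation p = 0.971), and its sign changed with the setting. The class summed to 1.49 ± 0.0584 CPM in photoconverted tumors and to 1.44 ± 0.428 CPM in controls (SD, n = 4 each).

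The label of the tumors as colon carcinoma was checked against 16 markers of intestinal and simple epithelium. Of these, 10 had counts in every tumor. Cdx2, an intestinal transcription factor, had no count in any tumor, Epcam, an epithelial adhesion molecule, had 0.061 to 0.411 CPM, and the list summed to 10.1 to 15.8 CPM. Its highest genes were Elf3, an epithelial transcription factor, at a mean of 5.45 CPM, Cdh1 at 2.26 CPM and Cdh17 at 1.26 CPM. Cdx2 and Epcam were chosen from the list after their values were seen. Cdh1 and Cdh17 encode epithelial and intestinal cadherins, so part of the list was present in every tumor, and 1 gene, Cdx2, was detected in none. Vim, the intermediate filament of mesenchymal cells, had 2430 to 3060 CPM, and its CPM was 1450 to 2680 times that of all 4 simple epithelial keratins together. Nes averaged 141 CPM and Des 42.1 CPM. Vim had a log2 fold change of -0.03 (standard error 0.14, edgeR adjusted p = 0.999).

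Of the 4 other keratins, Krt20, a type I keratin of differentiated intestinal epithelium, had 0.926, 0.411, 0.473 and 0.41 CPM in photoconverted tumors and 0.171, 0.321, 0.284 and 0.366 CPM in controls. Every photoconverted tumor was above every control, but photoconverted tumor 4 and control tumor 4 had the same count, 6, and Krt20 did not pass edgeR's filter. Krt23, a type I keratin of glandular epithelia, had 0.325, 0.189, 0.67 and 0.0683 CPM in photoconverted tumors and at most 0.114 CPM in controls, with photoconverted tumor 4 below 3 of the controls. Krt42, a type I keratin gene beside Krt17, had 1.33, 1.04, 0.946 and 0.273 CPM in photoconverted tumors and 0.771, 0.856, 1.53 and 0.366 CPM in controls. The difference for Krt42 on the log2 scale was 0.05 (standard error 0.50, adjusted p = 0.999 in edgeR, exact permutation p = 1). It lies at chr11:100262882-100269871, near Krt17 (chr11:100256217-100261029) and Krt16 (chr11:100246091-100248902). The differences in fold change between these neighbors were not tested. Krt222, a keratin-like gene, had at most 10 counts in any tumor. Antisense genes of the annotation overlap Krt6a, Krt7, Krt10 and Krt80, and a long intergenic RNA gene overlaps Krt8 on the opposite strand. Whether the counting used strand is not given in the sources used here.

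Genes of the skin around these keratins were read from fixed lists. Of 26 cornified envelope and granular layer genes in the table, 25 had counts in photoconverted tumor 2 and 25 in photoconverted tumor 3, whereas 9 to 15 had counts in each of the other 6 tumors. The list summed to 33.8 to 56.8 CPM in photoconverted and 28.3 to 43 CPM in control tumors, and most of it was Sbsn (mean 13.6 CPM), Cdsn (12.5 CPM) and Dmkn (4.13 CPM), which were present in all 8 tumors. Among its 7 genes tested, 5 were higher and 2 were lower, with 0 past the threshold after adjustment. At an unadjusted p under 0.05, 2 were higher, as were 1.65% of all genes tested. Of 17 keratinocyte adhesion and basal layer genes, 12 were tested, of which 9 were higher and 3 lower, with 0 past the threshold after adjustment. Here 1 of the 12 was higher at an unadjusted p under 0.05, against 1.65% of all genes tested. The highest genes of this list were the integrin gene Itgb4 (mean 12.2 CPM), Pkp3 (3.97 CPM) and Sfn (3.96 CPM), with log2 fold changes of -0.11, 0.10 and 0.04. The sums of this list were highest in photoconverted tumors 2 and 3, at 44.3 and 47 CPM, against 22.9 to 35.2 CPM elsewhere.

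Of 15 genes of the keratinocyte wound response, 0 passed the filter, and 3 had no count in any tumor. Their summed level was 2.13, 3.47, 2.4 and 0.547 CPM in photoconverted tumors 1 to 4 and 0.685, 0.642, 0.391 and 0.916 CPM in control tumors 1 to 4. Photoconverted tumors 1 to 3 were above all controls and photoconverted tumor 4 lay among them, as was the case for Krt16. Sprr1a, which encodes a small proline-rich protein cross-linked into the cornified envelope, had 0.951, 1.77, 1.02 and 0.0683 CPM in photoconverted tumors and 0.0571, 0.321, 0.249 and 0.244 CPM in controls. Sprr1b, a related gene, had 0.475, 0.284, 0.591 and 0.205 CPM in photoconverted tumors and at most 0.122 CPM in controls, and Il24, a cytokine gene, had a mean of 0.217 CPM over all tumors. The 12 hair follicle genes, led by S100a3, Gata3 and Dlx3, summed to 18.7 to 25.6 CPM in photoconverted and 20 to 35.4 CPM in control tumors, and their 4 tested members were all lower without passing the threshold (median log2 fold change -0.29). The sebaceous gland list, led by Scd1, a fatty acid desaturase, summed to 257 to 309 CPM and 231 to 315 CPM, and the melanocyte list to at most 1.33 CPM in any tumor.

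Markers of tissue under the skin were also highest where epidermal keratins were. The 16 skeletal muscle genes summed to 586, 974, 1930 and 240 CPM in photoconverted tumors 1 to 4 and 422, 504, 581 and 240 CPM in control tumors 1 to 4, led by Acta1, Myh4 and Atp2a1. The 8 adipocyte genes, led by Fabp4, Cfd and Lipe, summed to 32.2, 60.3, 85.7 and 26.7 CPM in photoconverted tumors and 24.2, 37.8, 49.7 and 25.1 CPM in controls. Both lists had their highest sums in photoconverted tumor 3 and the next highest in photoconverted tumor 2. All 16 muscle genes and all 7 adipocyte genes tested had a positive log2 fold change, with medians of 1.07 and 1.03 against -0.01 over all genes tested. An unadjusted p under 0.05 was reached by 2 muscle genes, Myh2 and Tnnt3, named after their values were seen, and by 0 adipocyte genes, and 0 passed the threshold after adjustment. Among all genes tested, 1.65% were higher and 0.574% lower at this unadjusted p. The part of skin, muscle and fat content in the keratin differences was not tested. Without photoconverted tumors 2 and 3 the log2 fold changes were 0.63 for Krt17, 1.12 for Krt16 and 0.43 for Krt6a, and none of the keratins then had an unadjusted p under 0.05 in edgeR, as had 0.408% of all genes. With the log2 CPM of Krt14 as a covariate they were 0.60 for Krt17, 0.88 for Krt16 and 0.21 for Krt6a, and Krt17 was the single keratin under 0.05 before adjustment, as were 0.47% of all genes in the higher direction. The adjusted p was 1 for each of these genes in both fits. Krt14 was itself higher in photoconverted tumors (log2 fold change 2.17), so as a covariate it can take up group difference by construction. That fit therefore does not separate skin content from group. Of the 10 leukocyte genes, led by Ptprc, Csf1r and Itgam, 4 had a log2 fold change above 0 and 6 below (median -0.09). After adjustment 0 passed. Before it, where 1.65% of all genes tested were higher at a p under 0.05 in edgeR, 2 of the 10 were. These were S100a9 and S100a8, calprotectin genes of neutrophils, named after their values were seen. S100a9 had 17.7, 22.4, 29.8 and 2.6 CPM in photoconverted tumors and 3.8, 1.93, 1.95 and 4.76 CPM in controls (log2 fold change 2.53, standard error 0.63, adjusted p = 0.999 in edgeR). S100a8 had 10.4, 10.4, 18.1 and 1.37 CPM in photoconverted tumors and 2.46, 0.321, 1.92 and 1.46 CPM in controls (log2 fold change 2.62, standard error 0.70, adjusted p = 0.999 in edgeR). As for Krt16, photoconverted tumors 1 to 3 were above all controls and photoconverted tumor 4 was among them, and the part of these genes' cells in the keratin differences was not tested. Leukocyte and fibroblast and endothelium lists summed to 175 to 563 CPM and to 1750 to 7510 CPM, the latter highest in control tumor 2 through Col1a1 and Col1a2.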

How the data were processed

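RNA-seq was performed on 8 tumors. The authors deposited a table of raw counts per gene symbol and a table of normalized values; per the labels, reads were processed with CASAVA, FastQC, Trim Galore, HISAT2, featureCounts and DESeq2 on mm10, and the annotation is not given in the sources used here. The second table, deposited as signal values (counts divided by size factors), was not used. The authors' paper names an Illumina TruSeq kit and the labels a SMARTER stranded kit. Raw counts were tested with edgeR 4.0.16 in R 4.3.3 (TMM, filterByExpr, quasi-likelihood test, Benjamini-Hochberg adjustment over all genes tested, threshold 0.05), with DESeq2 1.42.0 as an alternative. The procedure was tested on simulated data. Correlations used log2 CPM with a prior count of 2 and two-sided exact permutation tests. Groups came from the sample titles. Depth limited the precision of genes with few counts. Nothing in the labels says that each tumor came from a separate mouse, so p-values measure only the spread between these tumors, which may be technical. The authors' paper describes injection of tumor cells into the left flank and mice matched for age and sex.

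The members and lists were chosen with earlier results of these data known. Per-tumor values were given for simple epithelial, epidermal and wound-type keratins and for up to 5 inner root sheath and hair shaft keratins, and up to 3 genes of highest mean CPM were named from each other list. Same-numbered tumors, whose numbers come from the titles and which the labels do not pair, deviated together from their group means (r across genes of 0.597, 0.107, 0.407 and 0.623). Differently numbered pairs ranged from -0.6 to 0.482, and photoconverted tumor 3 correlated more with control tumor 1 (0.482) than with control tumor 3. Since every same-numbered r was over 0.1, fits with the number as a block and exact tests within these pairs were also made. Locations and lengths came from GENCODE vM21 (GRCm38) and promoters from RefSeq. Alternatives covered the test, scaling, filter, block, single tumors, the Rn45s share and Rn45s itself. Those without photoconverted tumors 2 and 3, with Krt14 as a covariate, without Krt80, with transcript lengths and with exchange within pairs were added after the data were seen. Flg was not analysed here.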

Additional observations from a re-analysis of the deposited data

Results flagged for a closer look

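Among 56 groups of 4 tumors examined for keratins and their classes, 15 held a tumor far from its group. The rule flags about 1 in 20 (2.8) for normally distributed values, which levels of genes with few counts are not. A group counted in only 1 tumor is flagged whatever its count, so the 15 cannot be weighed against chance. In photoconverted tumor 2 these were Krt25 (3.98 CPM against 0.0788 CPM in the nearest tumor of the group), Krt27 (1.61 against 0.118), Krt71 (2.87 against 0.118), Krt6b (4.2 against 0.751) and the summed inner root sheath class (9.28 against 1.54). In control tumor 2 they were Krt25 (4.82 CPM, with no count in the other controls), Krt27 (1.61 against 0.0355), Krt71 (4.82 against 0.0355), Krt85 (1.5 against 0.171) and the inner root sheath class (11.3 against 0.462).

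In control tumor 3, Krt15 (0.604 CPM, 17 counts), Krt1 (0.107 CPM, 3 counts) and Krt77 (0.0355 CPM, 1 count) stood apart because the other controls had no count, and for Krt1 and Krt77 the gap is within counting error. Krt20 was highest in photoconverted tumor 1 (0.926 CPM against 0.473). Krt16 was lowest in photoconverted tumor 4 (2.12 CPM against 6.82). Many of these genes had few counts and share tumors, so the 15 are not independent of each other.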

How the results depend on the processing

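The count of keratins past the threshold was 0 with each tumor left out and in all other settings but DESeq2's Wald test, where it was 1 (Krt17, log2 fold change 0.80). Over all genes the count was 24 in that test, 42 when only the 5 libraries with under 10% of counts on Rn45s were fitted, 0 to 11 with each tumor left out (11 without photoconverted tumor 4) and 0 otherwise. With the replicate number as a block, pairing same-numbered tumors, Krt17 was at 0.79 (edgeR adjusted p = 0.532) and no adjusted call changed, but Krt80 turned to 0.03. Signs of small differences also turned. With each tumor left out, the log2 fold change ranged from -0.20 to 0.49 for Krt42, -0.33 to 0.53 for Krt8 and -0.25 to 0.15 for Krt80, while that of Krt6a stayed positive (0.89 to 2.97). In these 5 libraries Krt42 was -0.04, Krt80 0.46, Krt8 0.91 and Krt10 3.09, the epidermal class difference was 0.95 and that of inner root sheath keratins 3.23, with library size only Krt80 was 0.11, and in DESeq2 Krt8 was -0.01. Without photoconverted tumors 2 and 3, Krt10 was -0.56, Krt42 -0.07 and Krt8 -0.24, and with Krt14 as a covariate Krt42 was -0.47, Krt8 -0.16 and Krt80 0.11. For the difference of mean log2 class sums, leaving out each tumor gave -0.02 to 0.26 for simple epithelial, 0.16 to 0.66 for epidermal, 0.95 to 1.47 for wound-type and -0.17 to 2.45 for inner root sheath keratins (main value 0.93, below 0 without photoconverted tumor 2 or control tumor 1). Without photoconverted tumors 2 and 3 it was -0.10 for epidermal, 0.77 for wound-type and -1.10 for inner root sheath keratins, and it was 1.43 for epidermal keratins without Krt80. The inner root sheath class includes Krt79, which held most counts of that class in every tumor but photoconverted tumor 2 and control tumor 2. With 1 tumor left out at a time, the correlation of Krt6a with Krt16 stayed between 0.86 and 0.95. It lost its call without photoconverted tumor 4 (adjusted p = 0.0516, exact permutation test) or control tumor 1 (adjusted p = 0.0725, exact permutation test). The correlation of Krt8 with Krt18 then lay between 0.03 and 0.55. With 2 tumors left out, the values were 0.85 and -0.16. The causes were not tested. Depth limits genes with few counts, which include all simple epithelial keratins.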
